A study of Mus musculus with 8 samples.

Results

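A set of 10 genes of canonical Wnt signalling was followed in sorted mouse mammary cancer cells. They are the receptors Fzd1 and Fzd7, the R-spondin receptors Lgr4 and Lgr5, the transcription factors Lef1 and Tcf7, the feedback genes Axin2 and Nkd1, and the secreted modulators Dkk3 and Sfrp1. All 16 non-control probes that carry 1 of these 10 gene names were taken, of 55681 such probes for 34761 genes or other named features on the array. The probes were selected by gene name alone, with no threshold on a measured value, but the 10 genes were chosen with earlier results of these data known. The cells were MAM326, a line derived from mouse mammary cancer and cultured in medium with serum, and they were sorted by flow cytometry 2 days after seeding into fractions with and without GFP. The sorting, as the labels describe it, was repeated in 4 independent experiments at different passages, and 20 ng of total RNA was labelled with Cy3 for each one-colour Agilent array. Each fraction was measured on 4 arrays. What drives GFP in this line was not given in the sources used here, nor was any allele or transgene that both fractions carry.

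In canonical Wnt signalling, a secreted Wnt ligand binds a Frizzled receptor and an LRP co-receptor, beta-catenin escapes destruction in the cytoplasm, and it then acts in the nucleus with transcription factors of the TCF/LEF family. Axin2, Nkd1 and Lgr5 are transcribed in response and are widely used as readouts of the pathway, while secreted proteins of the Dkk and Sfrp families act on it outside the cell. In the mammary gland the pathway is known for its part in stem cell maintenance and in tumours driven by Wnt genes.

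None of the 7 genes that could be tested changed between the fractions at a limma adjusted p under 0.05, without pairing of arrays. That threshold was passed by 2.55% of all features. By limma 3 of the 7 had an unadjusted p under 0.05, as 23.0% of all features did. Closest to the adjusted threshold was the transcription factor gene Tcf7, which encodes TCF1. It had a GFP-positive minus GFP-negative difference of -0.61 ± 0.13 (SE, 4 arrays against 4) on the log2 scale, with a limma adjusted p of 0.0510. Lef1, the other TCF/LEF gene of the set, had a difference of -1.08 ± 0.46 with an adjusted p of 0.210. The receptors Fzd1, Fzd7 and Lgr4 and the secreted modulators Dkk3 and Sfrp1 had differences from -0.14 to 0.96. The feedback genes Axin2 and Nkd1 and the stem cell marker Lgr5 were well above background on no more than 1 of 8 arrays and were not tested. A probe was tested where it was well above background, by the call of the extraction program, on at least 4 of the 8 arrays.

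Levels are the log2 of the deposited processed signal relative to the 75th percentile of the same array, so a level of 0 lies at that percentile, and the level of a probe is not comparable with that of another probe. Between 25112 and 31970 probes per array were well above background (45.1% to 57.4%), and no spot was saturated. Precision is limited by the number of arrays. All 8 arrays lay on 1 slide with 2 rows of 4 positions. Row 1 held GFP-positive replicates 1 and 3 and GFP-negative replicates 2 and 4, and row 2 held the others. Since the labels tie no array to an experiment, the p-values measure only the spread between these arrays, part of which may be technical. If arrays of the 2 fractions share an experiment, the SEs and p-values of the main fit do not use it. The mean level of 9 measured mammary epithelial markers ran from 2.54 to 3.13 on the GFP-positive and from 2.12 to 2.81 on the GFP-negative arrays. Elf5, the tenth epithelial marker, was well above background on 1 array. The mean of 11 measured mesenchymal and fibroblast markers ran from -0.37 to 1.70 on the GFP-positive and from 0.94 to 2.37 on the GFP-negative arrays, and the fibroblast gene Lum was well above background on 0 arrays. Of the markers of other cell types, 3 of 6 leukocyte, 2 of 4 endothelial and 1 of 3 adipocyte genes were measured, with differences between fractions from -0.08 to 0.29 and 0 past the threshold by limma, unadjusted or adjusted. Csf1r, Itgam, Kdr and Fabp4 were well above background on all 8 arrays and Pecam1 on 6, whereas Cdh5, Tek, Adipoq and Plin1 were so on 0 arrays and Ptprc and Adgre1 on 1.

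Of the 10 genes, 6 are represented by 2 probes, and for 4 of those genes the results turn on how the probes compare. The 60-base probes of Lef1 and of Tcf7 gave like differences, those of Fzd7 gave differences of opposite sign, and those of Nkd1 disagreed on 1 array. The first 30 bases of each of these probes, as the array files give them, are shown in lower case:
Fzd7 A_52_P552665: aagggaaggtgaacttcaaagtgattctgg
Fzd7 A_51_P142107: agccccgactttacagtcttcatgatcaag
Lef1 A_55_P2076871: actgcaagcgccgacttccaaaaagaaagc
Lef1 A_51_P420400: gtacaggtcccagaatgacagctgcctaca
Tcf7 A_52_P244702: ttttttcattctcgctgtagatagcctgaa
Tcf7 A_55_P2109633: ccaatacttcttggaccaagaatacctggt
Nkd1 A_55_P2118694: taagagatcaaggtagcgcataaaggctta
Nkd1 A_55_P1967736: cactaatatttagccagccttcatgtagaa
No capitals are used because no stretch within a probe is singled out. Positions below are those the files give on the mouse build mm9, and the exon or untranslated region in which a probe lies was not analysed here.

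Fzd1 and Fzd7 encode Frizzled receptors, which bind Wnt ligands at the cell surface. Fzd1 was measured by A_52_P597634 at chr5:4754003-4754062 (minus strand). Its levels on GFP-positive replicates 1 to 4 were 0.08, 0.29, 0.06 and 0.67, and on GFP-negative replicates 1 to 4 they were 0.07, 0.92, 0.16 and 0.54. In each fraction replicates 2 and 4 were the high ones and replicates 1 and 3 the low ones, and the groups overlapped almost completely. The difference was -0.14 ± 0.22 (95% confidence interval -0.64 to 0.35), with a limma adjusted p of 0.731.

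For Fzd7, the brighter probe A_52_P552665 at chr1:59543192-59543251 (plus strand) had levels of -0.42, -0.21, 0.40 and -0.34 on the GFP-positive and -0.35, -0.39, -0.82 and -0.24 on the GFP-negative arrays. GFP-positive replicate 3 stood above and GFP-negative replicate 3 below the other 6 arrays, which lay between -0.42 and -0.21 whichever fraction they came from. The difference was 0.31 ± 0.20 (interval -0.16 to 0.78; limma adjusted p = 0.403). The second probe, A_51_P142107 at chr1:59541367-59541426, also well above background on all 8 arrays, had levels of -2.82, -2.58, -2.55 and -2.38 against -2.32, -2.25, -2.61 and -2.31. There GFP-negative replicate 3 again was the lowest of its group, but GFP-positive replicate 3 was not the highest of its own, and the difference was -0.21 ± 0.12 (limma adjusted p over all kept probes 0.356). The 2 probes gave no common direction for Fzd7.

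Lgr4 and Lgr5 encode receptors for R-spondins, secreted proteins that raise the sensitivity of cells to Wnt ligands. Lgr4 had 1 probe, A_55_P2408848 at chr2:109853567-109853626 (plus strand), which was well above background on 4 arrays, 2 of each fraction. Its levels were -4.95, -4.87, -4.55 and -4.76 on the GFP-positive and -4.83, -4.49, -4.62 and -4.78 on the GFP-negative arrays. All 8 levels fell within 0.46 of each other, the narrowest range of the 7 genes tested and close to the limit of detection. The difference was -0.10 ± 0.12 (interval -0.37 to 0.17; limma adjusted p = 0.645).

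Lgr5, a marker of adult stem cells in several epithelia, was at background. Its probe A_55_P2126192 at chr10:114887403-114887462 (minus strand) gave -6.91, -6.45, -7.55 and -4.60 on the GFP-positive and -6.67, -4.53, -6.69 and -7.10 on the GFP-negative arrays. GFP-negative replicate 2 was the only array on which it was well above background, although GFP-positive replicate 4 was nearly as bright. The second probe, A_52_P30169 at chr10:114900686-114900745, was well above background on 0 arrays, with levels from -7.64 to -6.31. No fold change is given where both groups are at background.

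Lef1 encodes a TCF/LEF factor that carries beta-catenin to DNA and is itself a target of the pathway. On the probe A_55_P2076871 at chr3:130926200-130926259 (plus strand), the levels were -1.90, -0.89, -2.58 and -1.32 on GFP-positive replicates 1 to 4. The GFP-negative arrays gave -1.47, -0.31, -0.86 and 0.29. The lowest arrays were GFP-positive replicates 3 and 1 and the highest GFP-negative replicates 4 and 2, while the groups overlapped in the middle, where GFP-negative replicate 1 lay below GFP-positive replicates 2 and 4. The mean levels were -1.67 ± 0.73 (SD, n = 4) and -0.59 ± 0.75 (SD, n = 4), a difference of -1.08 ± 0.46 (interval -2.14 to -0.03), or 2.12-fold. By limma the unadjusted p was 0.0457 and the adjusted p 0.210. In sorted fractions, fewer cells that express a gene and less of its RNA per cell cannot be told apart.

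The second Lef1 probe, A_51_P420400, is placed by the files at chr3:130907851-130926012, a span far longer than the probe, and was well above background on all 8 arrays. Its levels were -3.58, -2.67, -3.93 and -3.17 against -2.98, -1.95, -2.41 and -1.39. Within each fraction the arrays came in the same order as on the first probe. The difference was -1.15 ± 0.38 (limma adjusted p over all kept probes 0.139).

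Tcf7 encodes TCF1, a TCF/LEF factor best known from T cells and progenitor cells. It was the 1 gene of the 7 tested whose groups did not overlap, as those of 16.7% of all features did not. The probe A_52_P244702 at chr11:52066114-52066173 (minus strand) had levels of -1.29, -0.91, -1.09 and -1.01 on the GFP-positive arrays and -0.75, -0.28, -0.49 and -0.35 on the GFP-negative arrays. Every GFP-positive array lay below every GFP-negative array, with GFP-negative replicate 1 nearest to the other group. The means were -1.08 ± 0.16 (SD, n = 4) and -0.47 ± 0.21 (SD, n = 4), a difference of -0.61 ± 0.13 (interval -0.90 to -0.31), or 1.52-fold. By limma the unadjusted p was 0.00139, and the adjusted p of 0.0510 lay just outside the threshold of 0.05.

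The second Tcf7 probe, A_55_P2109633 at chr11:52066738-52066797, was dimmer and was not well above background on GFP-positive replicate 2. Its levels were -4.46, -4.72, -4.34 and -4.36 on the GFP-positive and -3.70, -3.94, -4.02 and -3.54 on the GFP-negative arrays. The groups did not overlap there either. The difference was -0.67 ± 0.14 (interval -0.98 to -0.36; limma adjusted p over all kept probes 0.0523). With normexp background correction the difference on this dim probe was -0.23 (limma adjusted p = 0.144). Of the 10 kept probes of the set, 0 passed the limma fit over all kept probes, where 2.00% of all did. At an unadjusted p under 0.05 there were 5 of 10 (both probes of Lef1, both of Tcf7 and that of Sfrp1, hence 3 genes), beside 21.7% of all kept probes. Whether Tcf7 counts as changed depends on the setting. Its adjusted p was 0.0406 when only probes well above background on all 8 arrays were tested (4.17% of features then passed), 0.0139 when the kept probes of a gene were averaged (2.67%), and 0.0335 without GFP-negative replicate 1 (1.61%), and it lay above 0.05 without any other array. The limma adjusted p was also above 0.05 with quantile normalization (0.0553), normexp (0.0563), slide row as a block (0.0912) and no filter on dim probes (0.192). In all, Tcf7 passed in 7 of 21 settings.

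**Figure D1:**
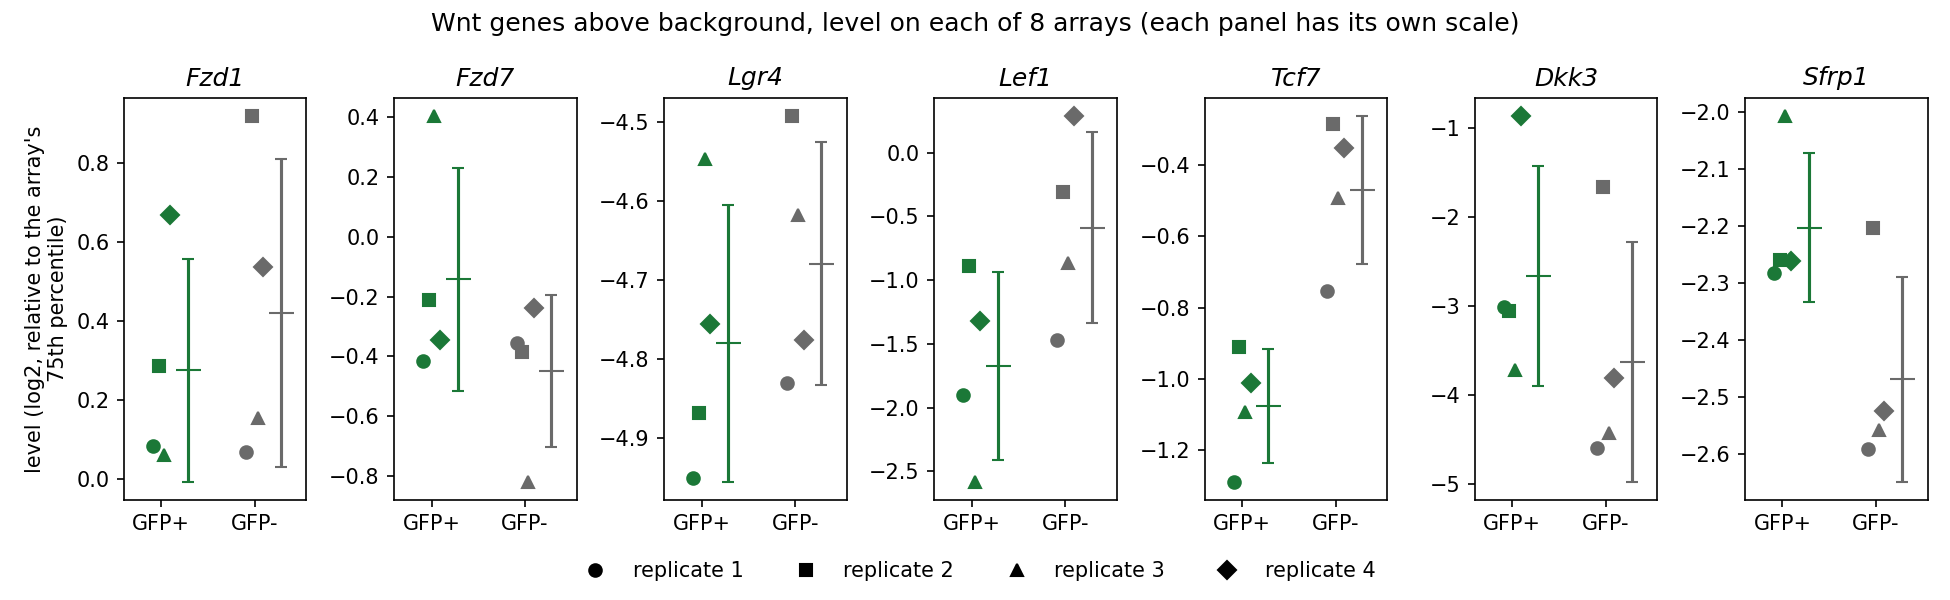
Levels of the 7 genes with a probe well above background on at least 4 arrays, on the log2 scale relative to the 75th percentile of each array. Each symbol is 1 array, green for GFP-positive and grey for GFP-negative, the shape gives the replicate number, and the bar beside each group is the mean with the SD over 4 arrays; each panel has its own scale. Only the Tcf7 groups do not overlap.

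**Figure D2:**
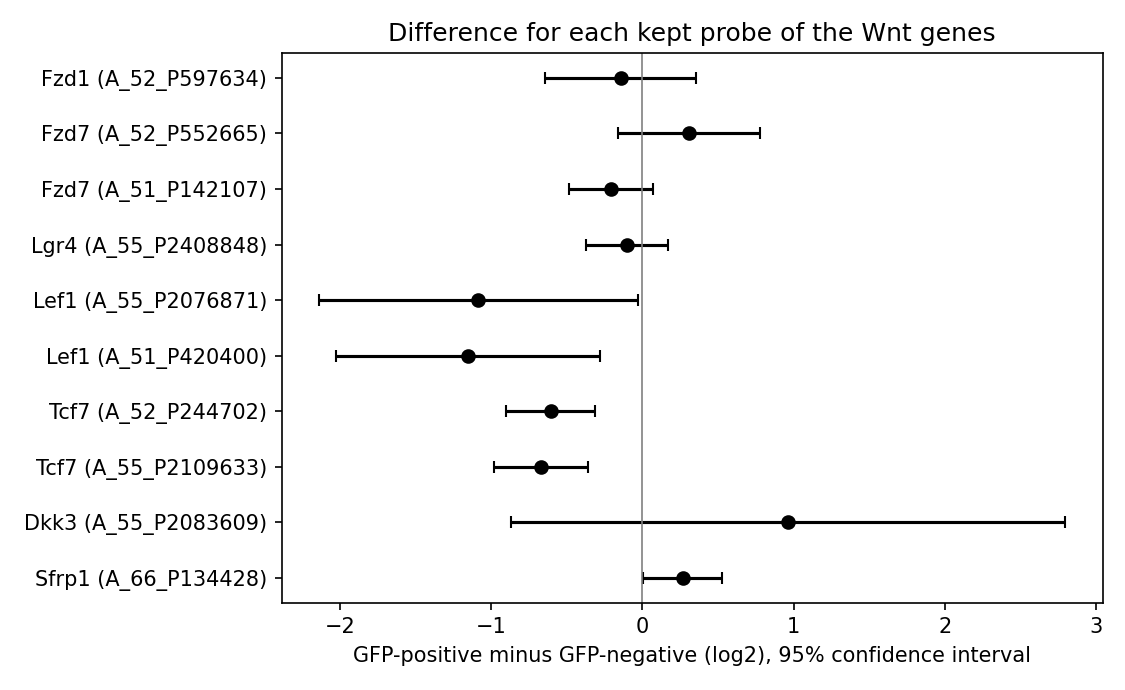
GFP-positive minus GFP-negative difference (log2) for each of the 10 kept probes, with the 95% confidence interval of the limma fit over all kept probes. Both Lef1 and both Tcf7 probes lie below 0, the 2 Fzd7 probes lie on opposite sides of 0, and Dkk3 has the widest interval.

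By slide row, the Lef1 values lay apart. In row 1, where GFP-positive replicates 1 and 3 stood against GFP-negative replicates 2 and 4, it was -2.23 with a limma adjusted p of 0.0389 from those 4 arrays alone. In row 2, where GFP-positive replicates 2 and 4 stood against GFP-negative replicates 1 and 3, it was 0.06 with an adjusted p of 0.937. The difference between the rows was -2.29 ± 0.49, with a limma adjusted p of 0.0889. For Tcf7 the values were -0.87 in row 1 (adjusted p = 0.0426) and -0.34 in row 2 (adjusted p = 0.475), of the same sign in both rows, and the limma adjusted p of the difference between rows was 0.201. Fzd1 had opposite signs in the rows, -0.65 and 0.37 (adjusted p of the difference 0.112), as did Dkk3 at -0.63 and 2.56 (0.256). Fzd7, Lgr4 and Sfrp1 had the same sign in both rows. None of the 7 genes passed that limma test of the difference between rows, which was added after the data were seen and which 1.22% of all features passed, while Fzd1, Lef1, Tcf7 and Dkk3 had an unadjusted p under 0.05, as 19.2% of all features did. Of all features, 5.31% passed within row 1 and 0.00% within row 2, where 2149 features had an unadjusted p under 0.05 by limma. Each row holds other replicates, so slide row, replicate and experiment cannot be told apart here. In its deviations from the mean of its fraction, each GFP-positive array was most like a GFP-negative array of the other row. Correlations of these pairs were 0.34 to 0.65, and those within a row ran from -0.53 to -0.16. Set against that other array, each GFP-positive array was lower in Fzd1, Lef1 and Tcf7 and higher in Dkk3. In Lef1, GFP-positive replicates 1 and 2 stood at -1.90 and -0.89, and their matches, GFP-negative replicates 3 and 4, at -0.86 and 0.29. GFP-positive replicates 3 and 4 stood at -2.58 and -1.32, and their matches, GFP-negative replicates 1 and 2, at -1.47 and -0.31. The values within a row compare other pairs than these. This matching was found in these same data and was not tested.

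**Figure D3:**
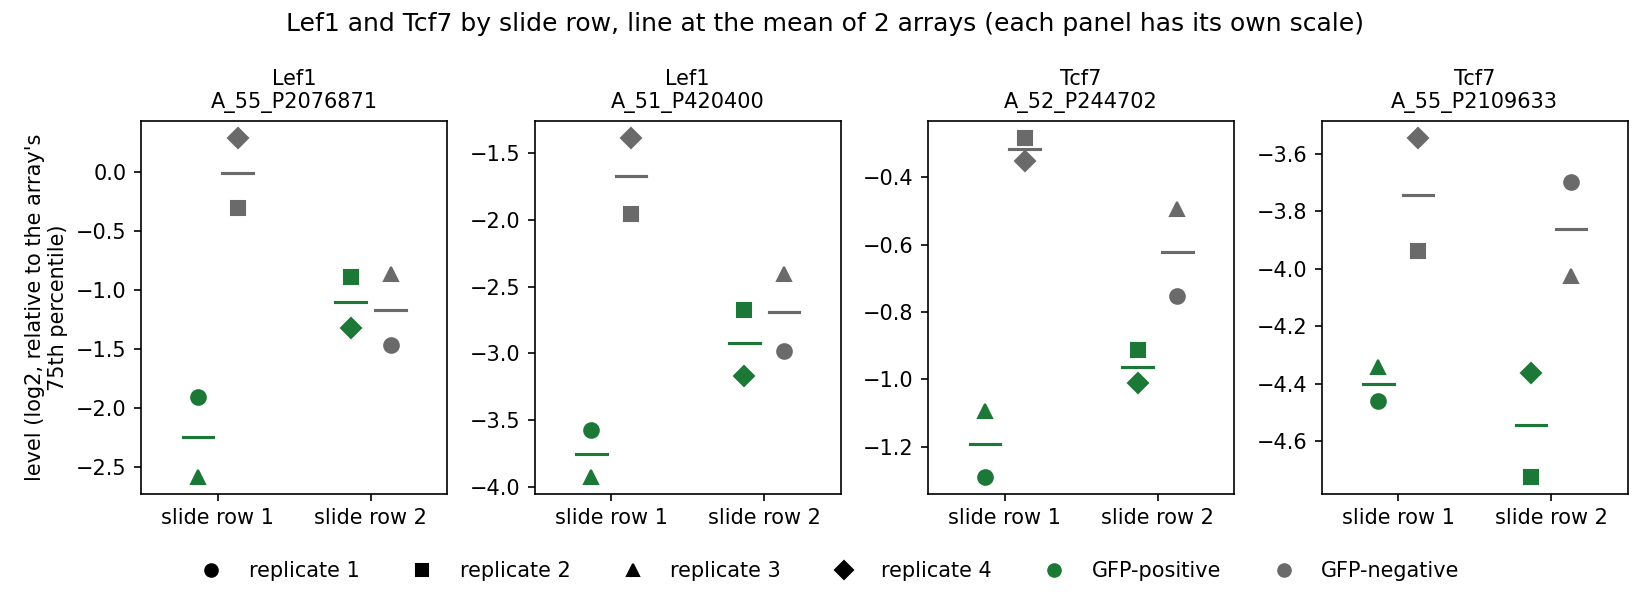
Levels (log2, relative to the 75th percentile of each array) on both probes of Lef1 and both probes of Tcf7, with the arrays of slide row 1 on the left and those of row 2 on the right of each panel. Each symbol is 1 array, its shape the replicate number and its colour the fraction, and each line is the mean of 2 arrays. The Lef1 fractions are apart in row 1 and overlap in row 2, whereas the Tcf7 fractions are apart in both rows.

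Levels of Lef1 mostly rose with the mesenchymal and fibroblast markers. The mean of the 11 measured markers was 0.55, 1.22, -0.37 and 1.70 on GFP-positive replicates 1 to 4 and 0.94, 2.37, 1.67 and 2.07 on GFP-negative replicates 1 to 4. GFP-positive replicate 3, lowest in that mean, was also lowest in Lef1, and GFP-negative replicates 2 and 4, highest in that mean, were highest in Lef1. GFP-positive replicate 4 departed from this, at -1.32 in Lef1. It lay below GFP-negative replicate 3 at -0.86 and GFP-positive replicate 2 at -0.89, which both had less marker signal. Within Tcf7 the same 2 GFP-negative arrays were highest, but GFP-positive replicate 4, with more marker signal than GFP-negative replicates 1 and 3, had less Tcf7 than either. Of the 11 markers, 10 had a negative difference, as had 11954 of all 19694 features, with a median of -0.93 beside -0.06 over all features. Of the markers, 0 passed the threshold, though 3 were lower at an unadjusted p under 0.05 by limma, as were 15.1% of all features. The largest differences were those of the collagen genes Col1a1 at -2.12 ± 1.19 (limma adjusted p = 0.325) and Col1a2 at -1.95 ± 1.03 (0.299). All 9 measured epithelial markers had a positive difference, as had 7740 of all 19694 features, with a median of 0.39. Again 0 passed, and 2 were higher at an unadjusted p under 0.05 by limma, as were 1542 of all 19694 features. The largest difference was 1.18 for the basal keratin gene Krt5 (limma adjusted p = 0.0911). Without GFP-negative replicates 2 and 4, the arrays lowest in the epithelial mean and left out after the data were seen, the difference was -0.51 for Lef1 (limma adjusted p = 0.661) and -0.45 for Tcf7 (0.268), and 0.493% of all features passed. The part of these markers in the Lef1 and Tcf7 differences was not tested.

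**Figure D4:**
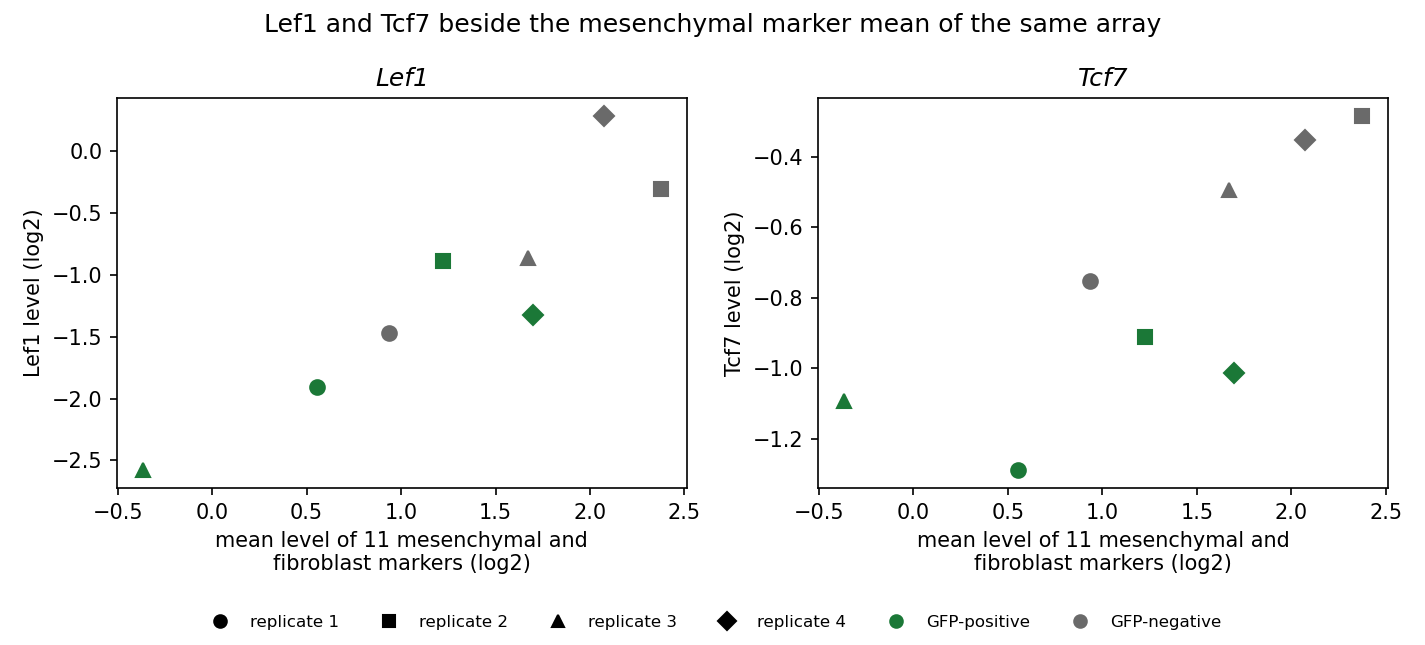
Level of Lef1 (left) and of Tcf7 (right), both log2 relative to the 75th percentile of the array, against the mean level of the 11 measured mesenchymal and fibroblast markers on the same array. Each symbol is 1 of 8 arrays, coloured by fraction and shaped by replicate number. In Lef1 the arrays of both fractions mostly rise with the marker mean, though GFP-positive replicate 4 lies below GFP-positive replicate 2 and GFP-negative replicate 3. In Tcf7 all 4 GFP-negative arrays lie above all 4 GFP-positive arrays.

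The feedback genes were at background in both fractions. Axin2 encodes a scaffold of the complex that degrades beta-catenin, and its transcription is one of the standard readouts of the pathway. Its probe A_55_P2000783 at chr11:108812034-108812093 (plus strand) had levels of -5.92, -6.46, -5.97 and -5.27 on the GFP-positive and -6.96, -5.09, -6.60 and -5.63 on the GFP-negative arrays. Only on GFP-negative replicate 2 was it well above background, and the groups overlapped. The other probe, A_66_P134405 at chr11:108803927-108803986, was well above background on 0 arrays, with levels from -6.74 to -5.94.

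Nkd1 encodes an inhibitor that binds Dishevelled. Its probe A_55_P2118694 at chr8:91118468-91118527 (plus strand) gave -7.01, -1.20, -5.27 and -6.70 on the GFP-positive and -5.83, -7.45, -6.56 and -7.39 on the GFP-negative arrays. GFP-positive replicate 2 stood far above the other 7 and was the only array on which the probe was well above background, with a processed signal of 190 in the scanner's units where the others had 2.88 to 15.7. The probe is a single spot per array, and the extraction program had not marked it as an outlier. The second Nkd1 probe, A_55_P1967736 at chr8:91116160-91116219, was at -6.28 on that array and well above background on 0 arrays, so the high value is not shared between the probes. What gave this value was not tested.

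**Figure D5:**
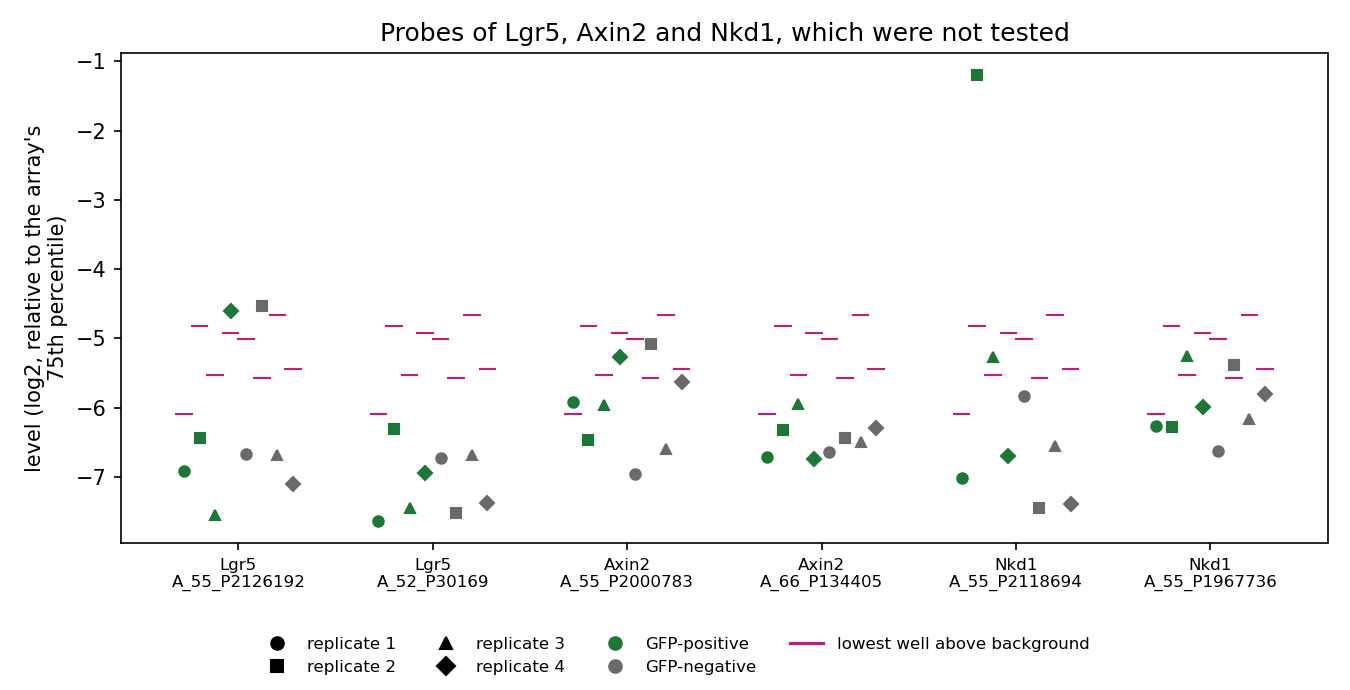
Levels (log2, relative to the 75th percentile of each array) on the 6 probes of Lgr5, Axin2 and Nkd1, 1 symbol per array, coloured by fraction and shaped by replicate number. The short lines mark, for each array, the lowest level of any probe called well above background, which ran from -6.09 to -4.66; a symbol above its line need not have been so called, since the call also uses the noise of the spot. The value of -1.20 for Nkd1 on GFP-positive replicate 2 stands alone.

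Dkk3 encodes a secreted glycoprotein of the Dickkopf family, often silenced in tumours, and Sfrp1 a secreted protein that binds Wnt ligands. Dkk3 had the widest range over the arrays of the 7 genes, 3.74 on the log2 scale. The probe A_55_P2083609 at chr7:119259556-119259615 (minus strand) had levels of -3.01, -3.05, -3.72 and -0.86 on the GFP-positive and -4.60, -1.66, -4.43 and -3.81 on the GFP-negative arrays. GFP-positive replicate 4 and GFP-negative replicate 2 were far above the rest, 1 in each fraction, and GFP-negative replicate 1 was not well above background. The means were -2.66 ± 1.24 (SD, n = 4) and -3.62 ± 1.35 (SD, n = 4), and the difference of 0.96 ± 0.80 (interval -0.88 to 2.80; limma adjusted p = 0.506) was smaller than the spread within either fraction. That spread may be partly shared between the fractions, as the 2 high arrays were those whose deviations over all features correlated most (0.65). The SE takes no account of this. The Dkk3 difference was 0.37 without GFP-positive replicate 4, 0.64 without GFP-negative replicate 1, 1.62 without GFP-negative replicate 2 and 0.37 with normexp.

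The 4 genes below had levels that rose and fell with those of Dkk3 over the 8 arrays, by Pearson's r among all named features. The size of the changes differed, as Lyrm2 ran only from 0.47 to 0.92 and Dkk3 from -4.60 to -0.86. They were Ptgr1 (r = 0.990), which encodes a prostaglandin reductase, Ebpl (0.987), Alox5ap (0.979), which encodes the activating protein of 5-lipoxygenase, and Lyrm2 (0.977). In all 4, GFP-positive replicate 4 and GFP-negative replicate 2 were the highest arrays, as in Dkk3, by which the genes were chosen. The differences between fractions ran from 0.09 to 0.33, none past the threshold. The list is a description of 8 arrays that share a slide, chosen as the highest of many correlations, and carries no test.

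Sfrp1, in contrast, varied little. On A_66_P134428 at chr8:24559438-24559497 (plus strand), its levels were -2.28, -2.26, -2.01 and -2.26 on the GFP-positive and -2.59, -2.20, -2.56 and -2.52 on the GFP-negative arrays. The fractions overlapped through GFP-negative replicate 2 alone, which lay within the GFP-positive group, and GFP-positive replicate 3 was the highest of all. The difference was 0.27 ± 0.11 (interval 0.01 to 0.52), with an unadjusted p of 0.0441 and an adjusted p of 0.207 by limma.

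Counted over the set, 7 of the 10 genes could be tested and 0 passed the threshold, where 2.55% of all 19694 features did. At an unadjusted p under 0.05 by limma there were 3 of 7, Lef1 and Tcf7 with negative and Sfrp1 with a positive difference, beside 23.0% of all features. The groups of 1 gene of 7 did not overlap, beside 16.7% of all features and 11.6% in that direction. Differences were positive for 3 and negative for 4 genes, with a median of -0.10 beside -0.06 over all features. These shares do not set the 7 genes apart from the other features, and the 3 genes that were not tested are not covered by them.

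The rest of the pathway was examined through 5 lists that exclude the 10 genes. Of 19 receptors and co-receptors, 16 were measured and 0 passed, beside 2.55% of all features, with a median difference of -0.13. At an unadjusted p under 0.05 by limma there were 3 higher and 3 lower, beside 23.0% of all features in either direction. The largest differences were -0.75 ± 0.66 for Adgra2 (limma adjusted p = 0.536), an adhesion receptor that serves as a co-receptor for Wnt7 ligands, -0.67 ± 0.18 for the Frizzled gene Fzd9 (0.0883) and 0.63 ± 0.25 for the R-spondin receptor Lgr6 (0.193), whose second probe gave 0.22. The essential co-receptors Lrp5 and Lrp6 had differences of -0.06 and -0.02. Rnf43 and Znrf3, ligases that remove Frizzled receptors from the surface and are themselves induced by the pathway, had differences of 0.26 (adjusted p = 0.656) and -0.14 (0.543).

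Among 33 genes of the beta-catenin machinery, 31 were measured and 0 passed, beside 2.55% of all features, with a median of -0.06. An unadjusted p under 0.05 by limma was found for 2 with positive and 3 with negative differences, beside 23.0% of all features in either direction. Ctnnb1, which encodes beta-catenin, had levels of 3.99, 4.02, 4.00 and 4.13 on the GFP-positive and 3.92, 4.23, 4.03 and 4.21 on the GFP-negative arrays, overlapping throughout, and a difference of -0.06 (limma adjusted p = 0.715). The other TCF genes, Tcf7l1 and Tcf7l2, had differences of 0.07 (0.622) and -0.18 (0.558), and 2 dimmer Tcf7l2 probes gave -0.10 and 0.15. Largest in this list were the corepressor genes Ctbp1 at -0.28 (0.0971) and Tle3 at -0.24 (0.239) and the Dishevelled inhibitor Nkd2 at 0.24 (0.272), whose second probe had the opposite sign at -0.12.

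Of 23 genes known as targets of beta-catenin in various tissues, 4 of which also stand in another of the lists, 17 were measured. Their median was -0.03, and 1 passed, beside 2.55% of all features. The gene that passed was Ascl2, a transcription factor of intestinal stem cells, which rose. Its levels were -3.01, -2.18, -1.79 and -2.04 on the GFP-positive arrays against -4.28, -4.53, -6.24 and -4.33 on the GFP-negative arrays, of which 3 were well above background. All GFP-positive arrays were higher, and the difference was 2.59 ± 0.47 with a limma adjusted p of 0.0348. It came from 1 probe and lay outside the threshold without any single array but GFP-negative replicate 3, with an adjusted p of 0.0210 to 0.0914 over the 8 omissions. With normexp the difference was 0.98 and passed (0.0147). Ccdc80 at -1.82 ± 1.00 (0.316) and Tbx3 at -0.51 ± 0.25 (0.263) had the next largest differences and did not pass. Ccdc80 stood at -4.19 in slide row 1 and 0.54 in row 2, and Tbx3 at -1.16 and 0.13.

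The secreted modulators beside Dkk3 and Sfrp1 were mostly at background, with 8 of 22 measured and a median of -0.10. Of the 8, 1 passed, beside 2.55% of all features. Dkkl1, a relative of the Dickkopf genes, rose by 1.05 ± 0.21 (limma adjusted p = 0.0465), a call that was lost without any single array except GFP-positive replicate 2 (adjusted p up to 0.152). It was 1.51 in slide row 1 and 0.59 in row 2. Dkk2, a Dickkopf antagonist, had a difference of -1.54 ± 0.70 (0.236), with levels of -2.68, -2.01, -4.63 and -1.41 against -2.32, -0.62, -1.09 and -0.53. GFP-positive replicate 3 was by far the lowest, and the groups overlapped at GFP-negative replicate 1. Rspo1, an R-spondin, was near background, at -0.39 ± 0.57 (0.722).

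Of 19 ligand genes, 11 were measured and 2 rose, with a median of 0.11; 1.81% of all features rose. Wnt9a had levels of 0.58, -0.05, 0.57 and 0.28 on the GFP-positive and -1.31, -1.74, -1.61 and -1.94 on the GFP-negative arrays. The groups were far apart, and the difference of 2.00 ± 0.18 (limma adjusted p = 0.00163) passed without each array in turn. Wnt4, a mediator of the progesterone response in the mammary gland, had levels of 1.36, 1.24, 1.92 and 1.02 against 0.45, 0.47, 0.35 and 0.19. Its groups did not overlap either, and the difference was 1.02 ± 0.18 (adjusted p = 0.0347), with an adjusted p of 0.0271 to 0.115 over the omission of 1 array and below the threshold only without GFP-positive replicate 3 or 4. A second Wnt4 probe gave 0.78, with a limma adjusted p over all kept probes of 0.0612. Wnt7a had a difference of 1.26 ± 0.78 (0.370) that did not pass. Of the 4 pathway genes past the threshold, Wnt9a alone remained with slide row as a block, where 1.41% of features passed, and with no filter on dim probes (0.434%). The pathway genes that passed were 2 ligands, a Dickkopf relative and Ascl2. Of the 16 measured receptors and the 31 measured genes of the beta-catenin machinery 0 passed, beside 2.55% of all features. Lists of this size do not show whether that differs from the share of all features.

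The promoters of the 10 genes were also searched for the TCF/LEF core motif. RefSeq windows of the build GRCm38.p6, each of 300 bases with 250 before the start, were found for 7 of the genes, Fzd1, Fzd7, Lgr4, Lef1, Tcf7, Axin2 and Nkd1, in 11 windows. The letters CTTTGAT, on either strand, were in 0 of these 11 windows and in 1225 of all 32851 windows (3.73%). This says only that these letters are not in these windows.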

How the data were processed

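The files are scanner output, 1 per array, from Agilent Feature Extraction, a name found in the submitters' processing notes, in version 10.7.3.1 per the file headers. The deposited intensity values used were the processed signal, which per the file headers had its background subtracted by that program. An alternative used the mean signal and local background instead. No later step of the authors is given in the sources used here.

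Spots marked as outliers (106 to 186 per array) were left out. The log2 deposited processed signal was set relative to the 75th percentile of the array. A probe was kept if 4 or more of the 8 arrays had it well above background (27591 of 55681), and the brightest kept probe stood for each gene (19694 features). GFP-positive minus GFP-negative was fitted to all features with limma 3.58.1 in R 4.3.3 (lmFit and eBayes, two-sided, Benjamini-Hochberg, threshold 0.05, no block), with data.table (version 1.17.8) for reading. All kept probes were also fitted. Errors of differences are SEs and of levels SDs. The fit was tested on simulated data in which all arrays were independent. That simulation had no shared experiments or slide rows, so it does not cover their effects on the fit.

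The rule named the 10 genes and all their probes, each list gene past the threshold or else the largest differences up to 3 per list, 7 further pathway genes whatever their result, and the 5 genes most like the gene of widest range, of which 1 is not reported here. The members, lists and rules were chosen with earlier results of these data known. Symbols were updated through RefSeq for the 49.4% of probes whose accession matched. Replicate numbers are shared between the fractions, but same-numbered arrays did not deviate together (correlations of -0.03, 0.07, 0.02 and 0.18). The labels give no other pairing, so none was used. This does not show that the arrays are unpaired, and arrays with different numbers correlated up to 0.65. The SEs thus include any spread that the fractions share by experiment. Alternatives covered background correction, scaling, the filter, probe choice, blocks, slide rows, array weights, the variance prior and the omission of arrays.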

Additional observations from a re-analysis of the deposited data

Results flagged for a closer look

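Of 32 groups of 4 arrays (16 probes in each fraction), 3 held an array whose gap to the nearest other was a large part of the whole range, by Dixon's criterion. Chance alone gives about 1 such group in 20. On the Lgr5 probe A_55_P2126192, GFP-negative replicate 2 was at -4.53 and the nearest array of its group at -6.67. On the Sfrp1 probe, GFP-positive replicate 3 was at -2.01 with the nearest at -2.26. On the same probe, GFP-negative replicate 2 was at -2.20 with the nearest at -2.52, which is the array through which the Sfrp1 fractions overlapped.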

How the results depend on the processing

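Results were recomputed under 20 alternatives (19 for Lgr4, Dkk3, Rspo1 and Ascl2, which drop out under the filter on all 8 arrays) and, added after the data were seen, without GFP-negative replicates 2 and 4 together. Of the 503 features past the threshold, the count became 782 with normexp, 151 with no filter, 277 with slide row as a block, 1046 within row 1, 0 within row 2, 1816 with array weights, 1164 with an intensity trend and robust prior, 150 to 422 without 1 array and 97 without 2. Of the 7 genes tested, or 5 with the filter on all 8 arrays, 1 passed (Tcf7) with that filter, the mean of kept probes, array weights (adjusted p = 0.0178) and the trend (0.0351), 0 to 1 passed without 1 array, and 2 passed within row 1 (Lef1 and Tcf7). Of the pathway lists, where 4 genes passed, 1 passed with no filter, 1 with the row block, 8 within row 1, 0 within row 2, 8 with array weights, 1 to 2 without 1 array and 1 without 2. With replicate number as a block, although the numbers did not pair the samples and each GFP-negative array deviated most like a GFP-positive array of another number (correlations of 0.34 to 0.65), 214 features, 1 of the 7 genes (Tcf7, adjusted p = 0.0457) and 1 list gene passed. Tcf7 was lower in every setting (-0.87 to -0.34), and Fzd7, Lgr4, Sfrp1, Wnt9a, Wnt4, Dkkl1 and Ascl2 also kept their direction in each setting in which they were tested. For Fzd7 this does not extend to its second probe, which gave -0.21 in the fit over all kept probes, and the mean of both probes gave 0.05. Signs turned, always for differences that had not passed, as follows. With quantile normalization Ctnnb1 was at 0.0272 and Lrp6 at 0.0635, and with array weights Lrp6 was at 0.0012. Within row 1 Dkk3 was at -0.63, Lrp5 at 0.0240, Lrp6 at 0.22, Rnf43 at -0.30 and Znrf3 at 0.0713. Within row 2 Fzd1 was at 0.37, Lef1 at 0.0609, Adgra2 at 0.86, Rspo1 at 0.57, Ccdc80 at 0.54, Tbx3 at 0.13, Wnt7a at -0.41 and Ctnnb1 at 0.10. Without 1 array Lrp6 ran from -0.0939 to 0.0556 and Fzd1 from -0.28 to 0.0217. Without GFP-negative replicates 2 and 4 Fzd1 was at 0.16, Rspo1 at 0.24 and Ctnnb1 at 0.0595. The cause was not tested, apart from the smaller number of arrays or larger number of probes that some settings have by construction. Probes near background, above all those of Lgr4, Lgr5, Axin2 and Nkd1, are the least certain.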
